A study of Mus musculus with 6 samples.

Results

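Matricellular proteins are secreted into the extracellular matrix, where they act on cells and on matrix assembly more than as structural fibres. The 10 genes described here are Thbs1, Thbs2, Thbs3 and Thbs4, which encode thrombospondins, Sparc and its relative Sparcl1, Postn (periostin), Tnc (tenascin C), Spp1 (osteopontin) and Cilp (cartilage intermediate layer protein). They were taken by symbol from the 18158 features of the deposited table, and all 10 were found. The tissue was ventricle from 6 CD1 mice, an outbred stock, aged 3 months. In the 3 Paro/Neo mice the pair of aminoglycoside antibiotics paromomycin and neomycin was given intraperitoneally at 150 mg/kg, 2 times a day, for 14 days. The 3 Vehicle mice received PBS daily over the same time. No transgene or deletion is named in the labels, and each library is 1 mouse. Values are in TPM, a share of all transcripts scaled for transcript length, so levels of different genes can be set side by side. The design text states the question: how expression differs when the treatment suppresses the activity of the transcription factors Meis1 and Hoxb13, an activity that RNA levels do not measure.

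In the adult heart these genes are expressed mainly outside the cardiomyocyte, by fibroblasts, vascular cells and leukocytes, and several are known for their induction after infarction or pressure overload. Thrombospondins bind integrins, CD36 and CD47, and thrombospondin 1 activates latent TGF-beta. SPARC and periostin bind collagen and take part in its processing and crosslinking, while tenascin C and osteopontin are known as signals of tissue injury.

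The libraries held at least 9556387 to 15969980 reads assigned to features, inferred from the steps of the low TPM values. Paro/Neo replicate 1 stood apart from the rest, with a mean correlation of 0.9755 with the other libraries across genes, against 0.9814 to 0.9853, and a first principal component of 36.3, against -16.3 to 3.24. Values without it are given for the tested matricellular genes and for the median of each gene list. All 12 cardiomyocyte markers looked for were expressed, at a summed 131926 to 161897 TPM in Paro/Neo hearts and 138793 to 147911 TPM in Vehicle hearts. Their median log2 change was -0.06, or 0.01 without Paro/Neo replicate 1. The atrial marker Nppa was at 239.6, 447.5 and 1067 TPM in Paro/Neo replicates 1 to 3, and at 621.8, 825.2 and 615.6 TPM in Vehicle replicates 1 to 3. Myl7, another atrial marker, was at 221.2, 61.8 and 97.9 TPM in Paro/Neo and 25.7, 111.7 and 124.8 TPM in Vehicle replicates 1 to 3, so it was highest in the library where Nppa was lowest, as were Myl4 and Sln. The median log2 change of the 8 atrial markers tested was 0.16, or 0.03 without Paro/Neo replicate 1, and 5 of them had a higher mean in Paro/Neo hearts. The atrial list summed to 618 to 1315 TPM in Paro/Neo and 723 to 1148 TPM in Vehicle hearts, most of it Nppa in every library but Paro/Neo replicate 1. The part that atrial tissue has in the results below was not tested.

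Promoter windows from RefSeq (GRCm38.p6, the build mm10 is based on) matched 8 of the 10 genes. Each runs from 250 bases before to 50 bases after an annotated transcript start, and is printed 5′ to 3′ on the gene's strand. The windows of Thbs3, Postn and Sparc are shown because Paro/Neo and Vehicle hearts did not overlap for these genes, and that of Thbs4 because it was the one tested member whose mean was higher in Paro/Neo hearts. Capitals mark matches on either strand to any of these searched motifs: the TATA box TATAAA, the GC box GGGCGG, the AP-1 site TGANTCA, the SMAD box CAGAC, the MEIS site TGACAG, the TEAD site GGAATG and the CArG box.
Thbs3, + strand, chr3:89214930-89215229: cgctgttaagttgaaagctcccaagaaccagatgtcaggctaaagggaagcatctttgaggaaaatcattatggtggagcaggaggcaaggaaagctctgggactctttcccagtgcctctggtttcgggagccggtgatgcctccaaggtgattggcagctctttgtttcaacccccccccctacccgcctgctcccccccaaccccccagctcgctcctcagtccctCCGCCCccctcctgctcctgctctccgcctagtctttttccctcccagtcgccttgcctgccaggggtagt
Postn, + strand, chr3:54360857-54361156: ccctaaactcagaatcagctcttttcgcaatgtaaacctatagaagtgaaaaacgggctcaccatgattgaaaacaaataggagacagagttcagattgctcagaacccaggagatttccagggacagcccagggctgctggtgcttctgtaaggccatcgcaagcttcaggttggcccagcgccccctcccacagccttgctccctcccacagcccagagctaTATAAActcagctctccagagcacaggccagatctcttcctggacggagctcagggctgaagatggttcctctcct
Sparc, - strand, chr11:55420031-55420330: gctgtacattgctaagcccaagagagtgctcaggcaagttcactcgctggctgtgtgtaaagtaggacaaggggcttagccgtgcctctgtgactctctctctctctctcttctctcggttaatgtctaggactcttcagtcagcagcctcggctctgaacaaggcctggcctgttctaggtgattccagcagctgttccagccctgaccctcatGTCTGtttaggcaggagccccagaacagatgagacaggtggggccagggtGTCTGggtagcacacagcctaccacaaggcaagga
Thbs4, - strand, chr13:92794769-92795068: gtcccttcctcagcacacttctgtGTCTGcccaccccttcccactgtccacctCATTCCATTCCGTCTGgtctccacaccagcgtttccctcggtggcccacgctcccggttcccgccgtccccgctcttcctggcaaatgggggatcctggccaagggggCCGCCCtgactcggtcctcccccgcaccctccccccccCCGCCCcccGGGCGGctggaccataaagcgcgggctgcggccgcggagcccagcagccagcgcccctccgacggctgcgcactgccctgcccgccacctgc
The Postn window holds TATAAA at bases -26 to -21, counted from the first transcribed base as +1. Thbs3 has no TATAAA and 1 GC box at -21 to -16. Sparc has SMAD boxes at -35 to -31 and at 16 to 20, and its window is placed on an annotated transcript start that lies 3103 bases inside the outer end of the gene. Thbs4 is the richest in GC, at 72% against a median of 52.7% over all windows, and has GC boxes at -89 to -84, -51 to -46 and -42 to -37. Its pair of TEAD sites, at -197 to -192 and -192 to -187, share a base with each other, and the second touches without overlap a SMAD box at -186 to -182, with another SMAD box at -226 to -222. Among all 32851 windows, 13.6% hold a TATAAA, 35.7% a GC box, 49.6% a SMAD box, 14.7% a TEAD site, 19.2% a MEIS site, 7.81% an AP-1 site and 1.63% a CArG box. None of the 8 member windows holds the letters of the MEIS site, the AP-1 site or the CArG box. These matches describe the letters in the windows and say nothing of binding.

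Levels spread over 3 orders of magnitude. Sparc and Sparcl1 made up most of the summed matricellular mRNA, 89.1% to 91.3% of it in Paro/Neo hearts and 88.7% to 91.1% in Vehicle hearts. In Vehicle hearts the order of mean levels was Sparc (540.1 TPM ± 121.3), Sparcl1 (460.2 TPM ± 87.8), Postn (69.6 TPM ± 15.0), Thbs2 (17.3 TPM ± 2.64), Thbs4 (9.20 TPM ± 1.58), Thbs1 (4.73 TPM ± 0.859), Thbs3 (4.15 TPM ± 0.820), Cilp (3.74 TPM ± 1.24), Spp1 (1.76 TPM ± 0.874) and Tnc (0.518 TPM ± 0.204; SD, n = 3 each). Neighbours whose ranges overlapped in Vehicle hearts were Sparc with Sparcl1, Thbs1 with Thbs3, Thbs3 with Cilp, and Cilp with Spp1.

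**Figure D1:**
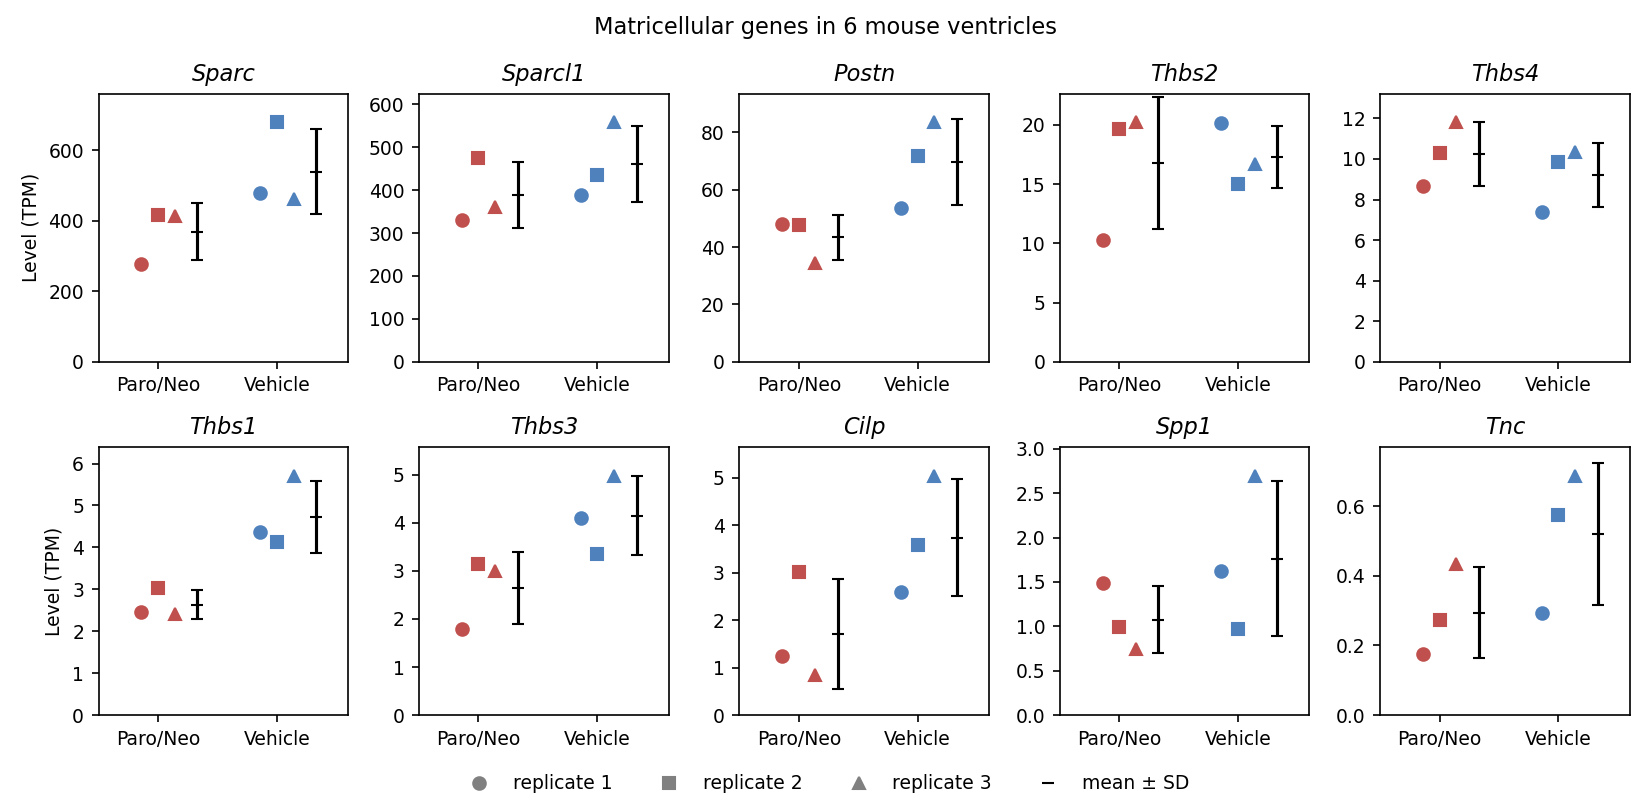
Level in TPM (y axis, from 0, scaled per gene) of the 10 matricellular genes in each Paro/Neo and Vehicle ventricle. Points are single mice, marked by replicate, and bars are mean ± SD (n = 3). For Thbs1, Thbs3, Postn and Sparc the Paro/Neo points all lie under the Vehicle points.

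Of the 10 genes, 9 were high enough to test, and 8 of these had a lower mean log2 level in Paro/Neo than in Vehicle hearts, as did 53.7% of all 12409 tested genes. None of the 9 passed the threshold of an adjusted p under 0.05 by limma, which 0.137% of all tested genes did, 0.121% higher and 0.0161% lower. At an unadjusted p under 0.05, 5 of the 9 were lower, namely Thbs1, Postn, Cilp, Sparc and Thbs3, where 4.37% of all tested genes were lower at that p, and 0 were higher, where 3.24% were. Every Paro/Neo heart lay under every Vehicle heart for 4 of the 9, which was so for 8.22% of all tested genes, and over every Vehicle heart for 0 of the 9, against 6.04% of all. The median log2 change over the 9 was -0.51, and over all tested genes it was -0.02. The genes were chosen with earlier results of these data known, so these shares are given as a description. In bulk tissue, fewer cells of a type and less RNA per cell cannot be told apart, which applies to every value below.

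Thbs1, the thrombospondin that activates latent TGF-beta and restrains vessel growth through CD36, had 2.45, 3.04 and 2.42 TPM in Paro/Neo replicates 1 to 3, against 4.36, 4.12 and 5.71 TPM in Vehicle replicates 1 to 3. The groups did not overlap, and the 3 Paro/Neo hearts lay close together. These values rest on 91 to 118 reads per Paro/Neo library and 163 to 207 reads per Vehicle library. The mean was 2.64 TPM ± 0.348 in Paro/Neo and 4.73 TPM ± 0.859 in Vehicle hearts (SD, n = 3 each), a ratio of 0.557. The log2 change was -0.65 ± 0.15 (SE), with a 95% interval of -1.0 to -0.30, an unadjusted p of 0.00287 and an adjusted p of 0.271 by limma. By unadjusted p it ranked 131st of all tested genes, the first among the matricellular genes. Without Paro/Neo replicate 1 the log2 change was -0.61 (limma, adjusted p 0.458), so the difference was of like size without the library that stood apart. The gene lies at chr2:118111876-118127133 on the + strand (GRCm38, GENCODE M21), and shares exonic bases with the lincRNA Gm29233 on the other strand.

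Thbs3, which assembles as a pentamer as Thbs4 does, had 1.79, 3.14 and 3.01 TPM in Paro/Neo replicates 1 to 3, against 4.11, 3.35 and 4.98 TPM in Vehicle replicates 1 to 3. The groups did not overlap, but Paro/Neo replicate 2 and Vehicle replicate 2 were near each other. Reads numbered 46 to 67 per Paro/Neo library and 73 to 107 per Vehicle library. Its log2 change was -0.51 ± 0.20 (SE), with an unadjusted p of 0.0338 and an adjusted p of 0.590 by limma. Without Paro/Neo replicate 1, its lowest library, the log2 change was -0.32 and the unadjusted p 0.0939. Thbs3 lies at chr3:89215180-89226837 on the + strand and shares exonic bases with Mtx1, a gene of mitochondrial import on the opposite strand. The strand setting of the authors' counting is not given in the sources used here, so reads of this pair may not be told apart. Mtx1 averaged 16.4 TPM ± 0.867 in Paro/Neo and 17.3 TPM ± 2.01 in Vehicle hearts (SD, n = 3 each).

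Thbs2, the trimeric relative of Thbs1 known from mice lacking it for abnormal collagen fibrils, had 10.3, 19.7 and 20.2 TPM in Paro/Neo replicates 1 to 3, against 20.2, 15.0 and 16.7 TPM in Vehicle replicates 1 to 3. Only Paro/Neo replicate 1 was low, and the other Paro/Neo hearts lay at or near the top of the Vehicle range. The log2 change was -0.09 ± 0.24 (SE), with a 95% interval of -0.65 to 0.47 and an adjusted p of 0.939 by limma. Without Paro/Neo replicate 1 it was 0.21 with an interval of -0.11 to 0.52, a change of sign. Thbs2 lies at chr17:14665500-14694235 on the - strand.

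Thbs4, a thrombospondin that in mice rises in the overloaded heart and promotes the ATF6 arm of the response to unfolded proteins, had 8.65, 10.3 and 11.8 TPM in Paro/Neo replicates 1 to 3. In Vehicle replicates 1 to 3 it had 7.40, 9.84 and 10.4 TPM. The groups overlapped. Its fitted change was 0.15 ± 0.16 (SE) on the log2 scale, with a 95% interval of -0.23 to 0.52 and an adjusted p of 0.833 by limma. Leaving out Paro/Neo replicate 1 gave 0.25, leaving out Paro/Neo replicate 3 gave 0.05, and leaving out Vehicle replicate 1 gave 0.01. Its gene lies at chr13:92751590-92794818 on the - strand.

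The summed level of the 4 thrombospondins was 23.2, 36.2 and 37.5 TPM in Paro/Neo replicates 1 to 3, against 36.1, 32.3 and 37.8 TPM in Vehicle replicates 1 to 3, with Paro/Neo replicate 1 lowest. Their shares of that sum were compared within each library. Thbs1 made up 10.6%, 8.39% and 6.46% of it in Paro/Neo replicates 1 to 3, against 12.1%, 12.8% and 15.1% in Vehicle replicates 1 to 3. Thbs3 made up 7.70%, 8.69% and 8.03% in Paro/Neo hearts, against 11.4%, 10.4% and 13.2% in Vehicle hearts. Neither share overlapped between groups, while those of Thbs2 and Thbs4 did. A ratio within a library is free of the scaling to TPM. The ratio of Thbs1 to Thbs4 was 0.283, 0.295 and 0.205 in Paro/Neo replicates 1 to 3, against 0.589, 0.419 and 0.552 in Vehicle replicates 1 to 3, a difference of log2 ratio of -1.0 ± 0.22 (SE). That of Thbs3 to Thbs4 differed by -0.83 ± 0.27 (SE) and that of Thbs2 to Thbs3 by 0.57 ± 0.18 (SE), each without overlap. Each of these 3 ratios had an exact two-sided permutation p of 0.10, the smallest that 3 mice against 3 allow, and an adjusted p of 0.17 over the 10 ratios compared. The ratio of Thbs1 to Thbs3 overlapped between groups, at 1.37, 0.966 and 0.805 in Paro/Neo hearts and 1.06, 1.23 and 1.15 in Vehicle hearts (exact permutation p 0.60). The ratio of Thbs1 to Thbs2 overlapped between groups (exact permutation p 0.20), as did that of Thbs2 to Thbs4 (exact permutation p 0.60).

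**Figure D2:**
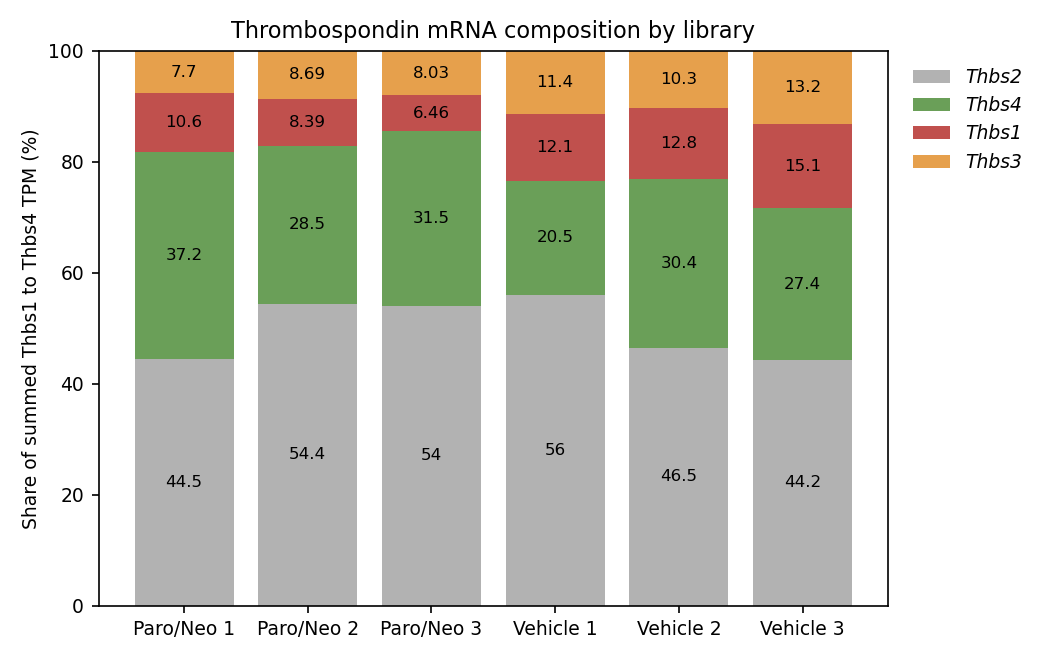
Share in percent (y axis) of Thbs1, Thbs2, Thbs3 and Thbs4 in their summed TPM in each library, Paro/Neo on the left and Vehicle on the right. Thbs1 and Thbs3 take smaller shares in each Paro/Neo library than in any Vehicle library, such as 6.46% to 10.6% against 12.1% to 15.1% for Thbs1.

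Sparc, a collagen-binding glycoprotein needed for normal processing of procollagen, had 276.4, 416.5 and 415.0 TPM in Paro/Neo replicates 1 to 3. In Vehicle replicates 1 to 3 it had 479.2, 679.8 and 461.3 TPM. The groups did not overlap, with Paro/Neo replicate 1 lowest and Vehicle replicate 2 highest. Reads ran from 5905 to 7363 per Paro/Neo library and from 5990 to 12308 per Vehicle library, so counting error is small beside the spread between mice. The log2 change was -0.55 ± 0.20 (SE), with a 95% interval of -1.02 to -0.08, an unadjusted p of 0.0269 and an adjusted p of 0.568 by limma. It was -0.35 without Paro/Neo replicate 1, and the groups still did not overlap. The gene lies at chr11:55394500-55423183 on the - strand.

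Sparcl1, the related protein hevin, produced by vascular cells among others, had 330.4, 474.8 and 361.1 TPM in Paro/Neo replicates 1 to 3, against 387.7, 434.9 and 557.8 TPM in Vehicle replicates 1 to 3. The groups overlapped, as Paro/Neo replicate 2 was higher than Vehicle replicates 1 and 2. This gave a log2 change of -0.24 ± 0.18 (SE), with a 95% interval of -0.65 to 0.16 and an adjusted p of 0.764 by limma. Leaving out Paro/Neo replicate 1 gave -0.14 and leaving out Vehicle replicate 3 gave -0.10, while the fit without Paro/Neo replicate 2 gave -0.40, where the unadjusted p was 0.0475. The ratio of Sparc to Sparcl1 was 0.837, 0.877 and 1.15 in Paro/Neo replicates 1 to 3 and 1.24, 1.56 and 0.827 in Vehicle replicates 1 to 3. These overlapped, so the changes of the 2 relatives were not shown to differ (exact permutation p 0.40). Sparcl1 lies at chr5:104079111-104113733 on the - strand.

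Postn, which marks activated cardiac fibroblasts and promotes collagen crosslinking, had 48.1, 47.8 and 34.4 TPM in Paro/Neo replicates 1 to 3, against 53.6, 71.7 and 83.5 TPM in Vehicle replicates 1 to 3. The groups did not overlap, and here Paro/Neo replicate 3, not replicate 1, was lowest. The mean was 43.5 TPM ± 7.80 in Paro/Neo and 69.6 TPM ± 15.0 in Vehicle hearts (SD, n = 3 each), a ratio of 0.624. The log2 change was -0.66 ± 0.19 (SE), with a 95% interval of -1.10 to -0.22, an unadjusted p of 0.00842 and an adjusted p of 0.445 by limma. It was -0.74 without Paro/Neo replicate 1 (limma, adjusted p 0.483). Postn lies at chr3:54361109-54391037 on the + strand.

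Tnc, a large hexameric glycoprotein that the adult heart re-expresses around injury, was the lowest of the 10 and did not pass the filter on low values, as it stayed under 1 TPM in every library. It had 10, 13 and 20 reads (0.174, 0.274 and 0.435 TPM) in Paro/Neo replicates 1 to 3 and 17, 28 and 24 reads (0.292, 0.575 and 0.688 TPM) in Vehicle replicates 1 to 3. The groups overlapped, and an exact two-sided permutation test of the means gave p = 0.20. In a fit without that filter its log2 change was -0.23 ± 0.12 (SE), with an unadjusted p of 0.113 and an adjusted p of 0.761 by limma. Tnc lies at chr4:63959785-64047015 on the - strand and shares exonic bases with the processed transcript 8030451A03Rik on the other strand.

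Spp1, encoding osteopontin, a cytokine-like ligand of integrins and CD44 that macrophages secrete, had 20, 11 and 8 reads (1.49, 0.991 and 0.745 TPM) in Paro/Neo replicates 1 to 3. It had 22, 11 and 22 reads (1.62, 0.968 and 2.70 TPM) in Vehicle replicates 1 to 3. The groups overlapped, with a log2 change of -0.38 ± 0.25 (SE) and an adjusted p of 0.748 by limma. Leaving out Paro/Neo replicate 1 gave -0.52 and leaving out Vehicle replicate 3 gave -0.15, while the fit without Vehicle replicate 2 gave -0.60, where the unadjusted p was 0.0395. Of 14 macrophage markers tested, 12 had a higher and 2 a lower mean in Paro/Neo hearts, with a median of 0.21, or 0.31 without Paro/Neo replicate 1. By limma 0 passed the threshold, and at an unadjusted p under 0.05 there were 2 higher, Fcgr1 and Cx3cr1, and 1 lower, Trem2, a receptor of lipid-associated macrophages (log2 change -0.80). In the fit without Paro/Neo replicate 1, 5 were higher and 0 lower at that p. Of all 12409 tested genes, 413 were higher and 492 lower there. The list had a sum of 723 to 751 TPM in Paro/Neo and 605 to 736 TPM in Vehicle hearts. Spp1 lies at chr5:104435118-104441050 on the + strand and shares exonic bases there with the unclassified transcript Gm42793.

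Cilp, a fibroblast product that in mice restrains TGF-beta signalling, had the largest fitted log2 change of the 9 with all 6 libraries, though not with array weights (-0.57, against -0.62 for Postn) or without Paro/Neo replicate 3 (-0.62, against -0.65 for Sparc), and the largest SE. It had 1.25, 3.02 and 0.855 TPM (42, 84 and 23 reads) in Paro/Neo replicates 1 to 3, against 2.59, 3.58 and 5.04 TPM (88, 102 and 103 reads) in Vehicle replicates 1 to 3. Paro/Neo replicate 2 lay within the Vehicle range, and the other Paro/Neo hearts lay under it. Its log2 change was -0.86 ± 0.31 (SE), with an unadjusted p of 0.0239 and an adjusted p of 0.550 by limma. It was -0.76 without Paro/Neo replicate 1, with a 95% interval of -1.62 to 0.10. Cilp lies at chr9:65265180-65280605 on the + strand.

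**Figure D3:**
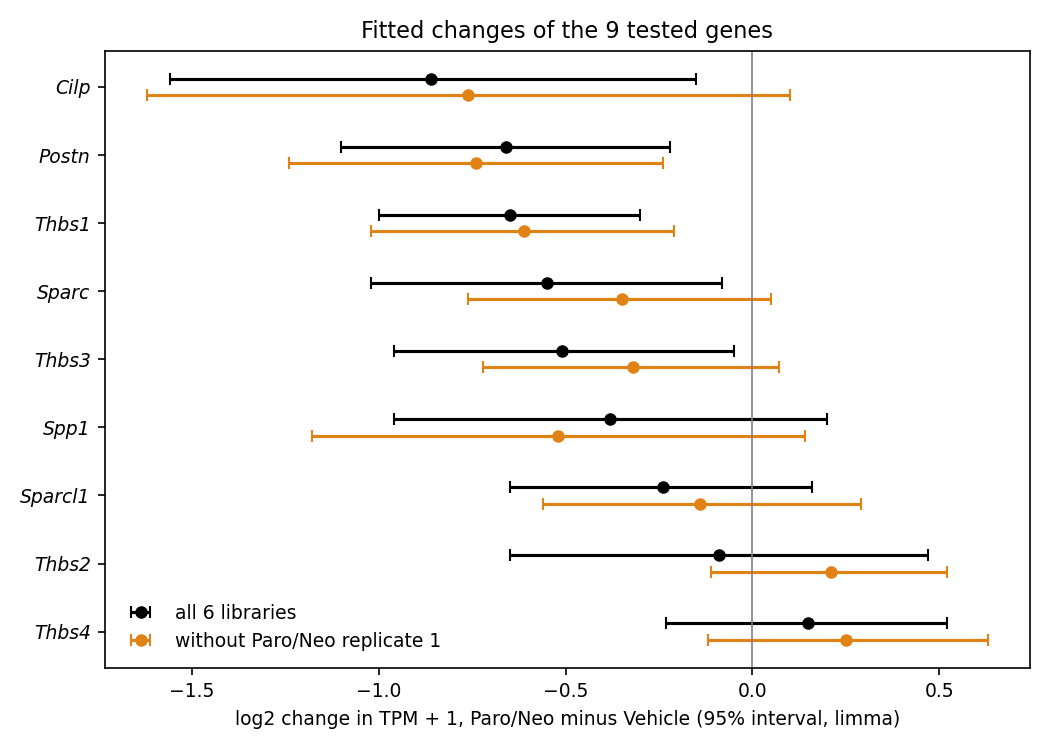
Fitted log2 change in TPM + 1 (x axis, Paro/Neo minus Vehicle) with its 95% interval for the 9 tested genes, from all 6 libraries (black) and without Paro/Neo replicate 1 (orange). In both fits the intervals of Thbs1 and Postn lie under 0, while those of Cilp, Sparc and Thbs3 do so only with all 6 libraries and Thbs2 moves from -0.09 to 0.21.

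The low values were not all in the library that stood apart. Relative to the Vehicle mean, the median deviation of the 9 tested genes was -0.68, -0.30 and -0.36 in Paro/Neo replicates 1 to 3, against -0.15, -0.06 and 0.24 in Vehicle replicates 1 to 3, on the log2 scale. In Paro/Neo replicate 1 all 9 lay under the Vehicle mean, in replicate 2 it was 6 and in replicate 3 it was 7. In Vehicle replicates 1 to 3 it was 7, 6 and 2. By this count Paro/Neo replicates 2 and 3 were like Vehicle replicates 1 and 2. Sparc, Thbs2, Thbs3 and Sparcl1 were lowest in Paro/Neo replicate 1, at -0.94, -0.68, -0.87 and -0.46, as was the untested Tnc, at -0.36. Postn, Spp1 and Cilp were lowest in Paro/Neo replicate 3, at -0.97, -0.61 and -1.32. Thbs1 was nearly level in Paro/Neo replicates 1 and 3, at -0.72 and -0.73. With Paro/Neo replicate 1 left out, the Paro/Neo hearts lay under all Vehicle hearts for the same 4 genes, where 12.8% of all tested genes did, and over them for none, where 10.7% did. At an unadjusted p under 0.05 by limma, the fit without Paro/Neo replicate 1 left 2 of the 9, Thbs1 and Postn, both lower. Of all 12409 tested genes, 492 were lower and 413 higher at that p in the same fit. A fit without Vehicle replicate 3 left 3 of the 9, Thbs1, Postn and Sparc. Over the 6 fits that each leave out 1 library, Thbs1 and Postn were at an unadjusted p under 0.05 in 6, Sparc in 4, Thbs3 in 3, Cilp in 2, and Sparcl1 and Spp1 in 1 each. Shares of all tested genes at that p are not given here for every such fit. Vehicle replicate 3 was the highest of the 6 libraries for 7 of the 10 genes.

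**Figure D4:**
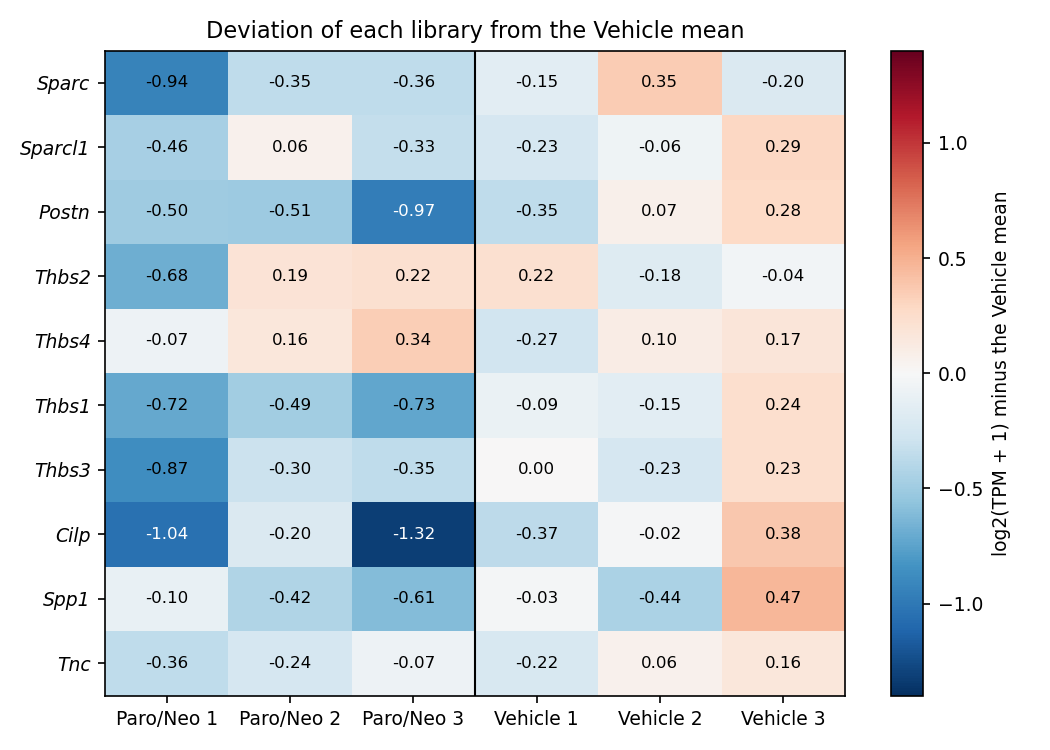
Deviation of each library (columns) from the Vehicle mean, in log2(TPM + 1), for the 10 genes (rows, by mean level). Thbs1, Thbs3, Postn, Sparc, Tnc, Spp1 and Cilp are blue in each Paro/Neo column. Sparc, Thbs2, Thbs3, Sparcl1 and Tnc are bluest in Paro/Neo replicate 1 (-0.94, -0.68, -0.87, -0.46 and -0.36).

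Profiles over the 6 libraries were compared by the root-mean-square distance between log2 levels, each centred on its own mean. Among the members, Thbs1 lay nearest to Thbs3 (0.179) and to Postn (0.192), and the farthest pair was Thbs4 with Cilp (0.634). The genes outside the set that lay nearest to the members' median profile were Fbxo16 (0.063), Slc16a12 (0.064), Pamr1 (0.066), Kcne4 (0.075) and Tmem231 (0.075). All 5 are of low level, between 0.743 TPM for Fbxo16 and 1.96 TPM for Kcne4 on average in Paro/Neo hearts and between 1.41 TPM for Fbxo16 and 3.02 TPM for Kcne4 in Vehicle hearts, and none passed the threshold (limma, adjusted p 0.560 to 0.693).

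Among 20 further tested genes of matricellular or related secreted proteins, 15 were lower and 5 higher, and by limma none passed the threshold (2 at an unadjusted p under 0.05), with a median log2 change of -0.17. The list's median deviation from the Vehicle mean was -0.55 in Paro/Neo replicate 1 and -0.06 and 0.02 in replicates 2 and 3, and without replicate 1 the fit gave 10 lower and 10 higher with a median of -0.02. The smallest p belonged to Ecm1, an extracellular matrix glycoprotein, and to Vtn (vitronectin), an adhesive ligand of integrins. Both were lowest in Paro/Neo replicate 1. Ecm1 was at 12.4, 29.7 and 25.5 TPM in Paro/Neo hearts, against 38.1, 40.5 and 33.6 TPM in Vehicle hearts. Vtn was at 11.3, 16.9 and 16.0 TPM in Paro/Neo hearts, against 19.9, 18.1 and 22.5 TPM in Vehicle hearts. Both were without overlap, at adjusted p of 0.547 and 0.575 by limma. Of the further relatives, Comp, the pentameric thrombospondin of cartilage and tendon, had 1.33, 4.003 and 4.52 TPM in Paro/Neo replicates 1 to 3, against 3.93, 3.19 and 2.77 TPM in Vehicle replicates 1 to 3. Cyr61, a CCN family protein that binds integrins, averaged 38.6 TPM ± 4.02 in Paro/Neo and 48.1 TPM ± 7.38 in Vehicle hearts, with overlap.

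Receptors and surface partners of these proteins differed less between groups than the matricellular genes did by median. Among 25 tested, 20 were lower and 5 higher, with a median of -0.14, or -0.06 without Paro/Neo replicate 1, none past the threshold by limma (4 at an unadjusted p under 0.05). The smallest p belonged to Itga6, a subunit of laminin-binding integrins, and to Egfr, the receptor on which repeats of tenascin C act. Itga6 averaged 17.2 TPM ± 0.626 in Paro/Neo and 23.6 TPM ± 3.86 in Vehicle hearts (limma, adjusted p 0.495). Egfr averaged 2.57 TPM ± 0.615 in Paro/Neo and 4.07 TPM ± 0.426 in Vehicle hearts (limma, adjusted p 0.496). Of the thrombospondin receptors Cd36 and Cd47, Cd36 averaged 2949 TPM ± 799 in Paro/Neo and 2430 TPM ± 145 in Vehicle hearts (log2 change 0.25 ± 0.18 SE), and Cd47 82.5 TPM ± 18.0 in Paro/Neo and 65.0 TPM ± 2.37 in Vehicle hearts (log2 change 0.32 ± 0.16 SE). Neither passed, with adjusted p of 0.760 and 0.695 by limma, and both were highest in Paro/Neo replicate 1. Cd36 had 3868, 2427 and 2551 TPM in Paro/Neo replicates 1 to 3, and without replicate 1 its log2 change was 0.04. Cd47 had 99.2, 63.5 and 84.9 TPM there, replicate 2 lying within the Vehicle range, and its log2 change was then 0.17. Of the integrin subunits of RGD-binding receptors, Itgav, Itgb1 and Itgb5 differed by log2 changes of -0.03, -0.04 and -0.02. Itga5 (-0.13), Itga8 (-0.25) and Itgb6 (-0.43) were lower, Itgb6 without overlap. Itgb3 and Itgb8 were too low to test. Itgb3 averaged 0.739 TPM in Paro/Neo and 1.03 TPM in Vehicle hearts, and Itgb8 0.683 TPM in Paro/Neo and 0.679 TPM in Vehicle hearts.

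Of 21 tested genes of the TGF-beta axis, which induces Postn, Tnc and Thbs1 in fibroblasts, 17 were lower and 4 higher, with a median of -0.15, or -0.08 without Paro/Neo replicate 1. None passed the threshold by limma (0 at an unadjusted p under 0.05). The smallest p belonged to the inhibitory Smad6 (2.92 TPM ± 0.655 in Paro/Neo and 3.92 TPM ± 0.439 in Vehicle hearts) and to Ltbp4, a latent TGF-beta binding protein. Ltbp4 had 10.4, 22.99 and 27.7 TPM in Paro/Neo replicates 1 to 3, against 24.4, 32.2 and 29.4 TPM in Vehicle replicates 1 to 3, and its log2 change was -0.57, or -0.17 without Paro/Neo replicate 1. Matrix proteins and collagen-assembly enzymes differed more: 29 of 30 tested were lower and 1 higher, with a median of -0.62, 17 of them lower at an unadjusted p under 0.05 and 0 past the threshold by limma. Eln (elastin, log2 change -1.31 ± 0.26 SE) and Col5a2 (a fibrillar collagen chain, -0.87 ± 0.17 SE) had the smallest p. That list's median was -1.13 in Paro/Neo replicate 1 and -0.29 and -0.39 in replicates 2 and 3, and the fit without replicate 1 gave a median of -0.36, with 17 lower and 1 higher at an unadjusted p under 0.05. Of 17 tested genes of the ATF6 and endoplasmic reticulum folding list, 10 had a higher and 7 a lower mean, with a median of 0.07, or 0.14 without Paro/Neo replicate 1, 3 of them higher at an unadjusted p under 0.05 and 0 past the threshold by limma. Dnajb9, a co-chaperone, averaged 99.1 TPM ± 20.6 in Paro/Neo and 66.7 TPM ± 4.22 in Vehicle hearts (limma, adjusted p 0.393), and Manf, a secreted folding factor, 43.9 TPM ± 4.82 in Paro/Neo and 34.6 TPM ± 1.88 in Vehicle hearts (limma, adjusted p 0.522), each without overlap.

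**Figure D5:**
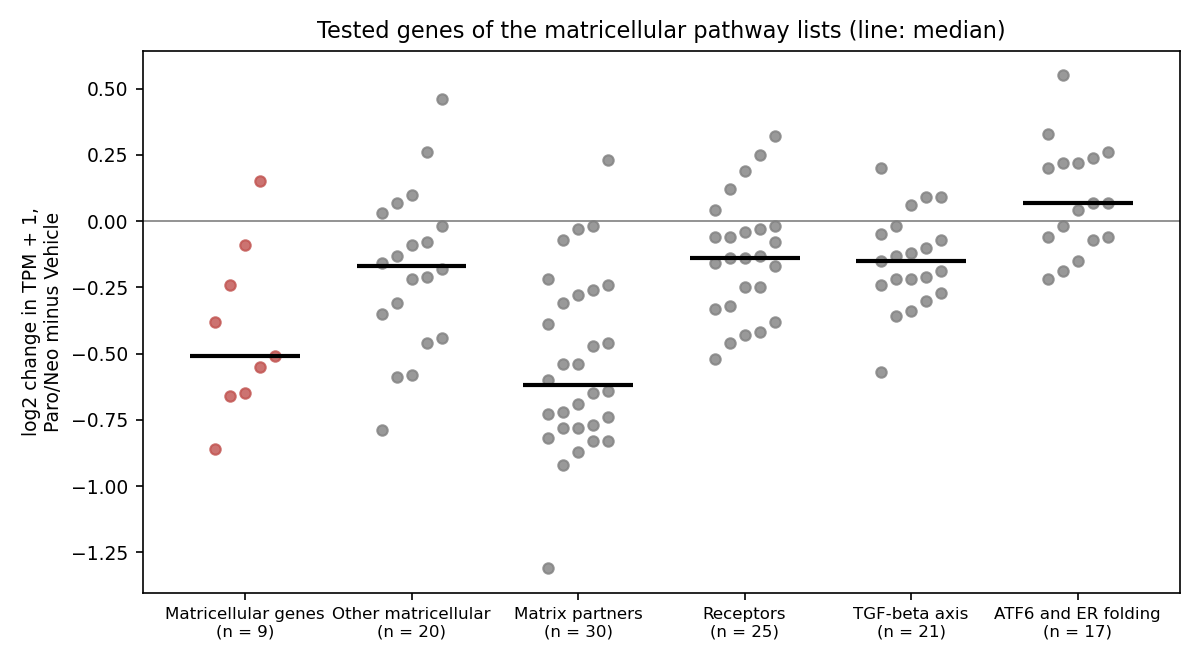
Fitted log2 change in TPM + 1 (y axis, Paro/Neo minus Vehicle) of every tested gene in 6 lists, with the list median as a line. The median is -0.51 for the matricellular genes and -0.62 for the matrix partners, against -0.14 for receptors, -0.15 for the TGF-beta axis and 0.07 for ATF6 and folding genes.

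Fibroblast markers moved with these genes in part. All 14 tested were lower, with a median of -0.31, or -0.23 without Paro/Neo replicate 1, 6 of them at an unadjusted p under 0.05 and 0 past the threshold by limma, and their sum was 3002 to 3724 TPM in Paro/Neo and 3790 to 3955 TPM in Vehicle hearts. Col1a1, Col1a2, Dcn and Lum are also in the matrix list, and Ddr2 is also in the receptor list. Some other lists share genes too, so counts by list are not separate results. Of the fibroblast markers, Pcolce and Islr had the smallest p, with log2 changes of -0.59 each. Other genes of the fibroblast list were closer between groups: Dcn averaged 1820 TPM ± 85.1 in Paro/Neo and 1842 TPM ± 30.0 in Vehicle hearts, and Pdgfra 27.6 TPM ± 5.54 in Paro/Neo and 29.5 TPM ± 1.11 in Vehicle hearts. Activated fibroblast markers were lower for 10 of 10 tested, with a median of -0.33, or -0.22 without Paro/Neo replicate 1, and 2 at an unadjusted p under 0.05, 0 past the threshold by limma. Those 2 were Meox1 and Col8a1. Meox1 averaged 10.9 TPM ± 3.20 in Paro/Neo and 20.2 TPM ± 6.73 in Vehicle hearts, with overlap. Col8a1 averaged 19.4 TPM ± 1.74 in Paro/Neo and 25.5 TPM ± 3.52 in Vehicle hearts, without overlap.

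Markers of other cell types had medians nearer 0 than the -0.51 of the matricellular genes, except for the epicardial list at -0.63, from 2 tested genes. Without Paro/Neo replicate 1 the matricellular median was -0.35, and the epicardial (-0.60) and red blood cell (-0.44) lists lay farther from 0. The 14 endothelial markers had 10 lower, a median of -0.20 (-0.11 without Paro/Neo replicate 1) and a sum of 3700 to 4309 TPM in Paro/Neo and 4398 to 4844 TPM in Vehicle hearts. Of 14 smooth muscle and pericyte markers 11 were lower, with a median of -0.15 (-0.07 without that library) and sums of 1412 to 1544 TPM in Paro/Neo and 1378 to 1525 TPM in Vehicle hearts. Valve and tendon markers, 12 in the table, summed to 51.0 to 67.8 TPM in Paro/Neo and 49.99 to 70.2 TPM in Vehicle hearts, and 5 were high enough to test, with a median of -0.10 (0.05 without it). Platelet markers, which bear on Thbs1 as a platelet granule protein, summed to 44.6 to 55.8 TPM in Paro/Neo and 45.2 to 64.5 TPM in Vehicle hearts, with all 3 tested lower and a median of -0.32 (-0.20 without it). Epicardial markers, 9 in the table, summed to 4.86 to 8.32 TPM in Paro/Neo and 10.2 to 12.6 TPM in Vehicle hearts. Of those too low to test, Msln, Krt8 and Bnc1 had higher means in Paro/Neo hearts, and Upk3b, Upk1b, Krt19 and Lrrn4 lower ones. Both tested genes, on which the list's median rests, were lower without overlap at an unadjusted p under 0.05. These were Aldh1a2, a retinoic acid synthesis enzyme (log2 change -0.81, unadjusted p 0.000932 and adjusted p 0.187 by limma), and the transcription factor Wt1 (log2 change -0.46, unadjusted p 0.0229 and adjusted p 0.549 by limma). Schwann cell markers summed to 12.5 to 18.6 TPM in Paro/Neo and 15.3 to 17.2 TPM in Vehicle hearts, with a median of -0.05 over 5 tested (0.03 without Paro/Neo replicate 1). Red blood cell transcripts summed to 2434 to 3802 TPM in Paro/Neo and 2366 to 4997 TPM in Vehicle hearts, with a median of -0.33 over 5 tested, all lower, 2 of them at an unadjusted p under 0.05. Those 2 were Hba-a1 and Hba-a2, whose values were nearly equal in every library (221.2 and 219.7 TPM in Paro/Neo replicate 1), so they are not separate results. None of these markers passed the threshold by limma, none listed in the table was at 0 in all 6 libraries, and their part in the results was not tested.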

How the data were processed

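Frozen ventricles were ground, RNA was extracted and column-purified, and stranded mRNA libraries were made from samples with an integrity number over 7 and read at 76 bp, per the labels' protocols. The deposited values are TPM made by the authors, 1 column per mouse, each with the same sum, so that more of one abundant transcript means less of others. The submitters' processing notes name mm10 and, without saying what each did, STAR 2.5.3a, Subread, featureCounts, edgeR and FastQC 0.11.5. Annotation, strand setting and feature filter: not given in the sources used here.

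Values were taken as log2(TPM + 1), which understates changes of low genes. The 12409 genes that reached 1 TPM in 3 or more libraries were fitted with limma 3.58.1 in R 4.3.3 (intensity trend), Paro/Neo minus Vehicle, two-sided, Benjamini-Hochberg adjusted over all of them, with a threshold of 0.05; SE are moderated. The fit was tested on simulated data. Whole reads were inferred from ratios of TPM values between libraries. All 14330 features above 0 in all 6 libraries came out whole within 0.001 of a read. So did the rest of the 17574 features above 0 in any library, but a feature above 0 in only 1 library comes out whole in any case. The inferred reads are lower estimates, as a factor common to all libraries cannot be seen. Counting intervals would cover counting error only. The samples are separate mice. Replicate numbers are those of the titles, 1 to 3 in both groups; the sample descriptions and column names number the Paro/Neo libraries 2 to 4. The titles say nothing of pairing, so the main fit took the mice as unpaired.

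The genes, lists and tests were chosen with earlier results of these data known. Named genes are the 10 members, the 5 nearest profiles and, from each list, the 2 with the smallest p, not all reported here. The 10 ratios (3 of them to Dcn, not reported) were chosen after values were seen. So were the genes Comp, Cyr61, Cd36, Cd47, Myl7, Myl4, Sln, Fcgr1, Cx3cr1, Trem2, Dcn, Pdgfra and Mtx1. The integrin subunits named, apart from Itga6, were also chosen after values were seen. Coordinates are from GENCODE M21 (GRCm38) and count from 1. Alternatives were other pseudocounts, filters, scaling, weights, voom on inferred reads, a replicate block and leaving out each library.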

Additional observations from a re-analysis of the deposited data

How the results depend on the processing

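The number of matricellular genes past the threshold was 0 in each of the 14 alternatives (limma). Their count at an unadjusted p under 0.05 was 5, and 2 to 6 when single libraries were left out. The share of all tested genes at that p is not given here for every fit. It was also 2 under the filter at a mean of 5 TPM, which leaves 5 of the genes to test; there the median log2 change was -0.24. That median was -0.61 to -0.35 without single libraries. Thbs1 and Postn kept an unadjusted p under 0.05 in all 13 and 14 alternatives that tested them, with log2 changes of -0.82 to -0.53 and -0.83 to -0.51 (adjusted p 0.176 to 0.630 and 0.316 to 0.863 by limma). Thbs2, at -0.09, ranged from -0.25 to 0.21 without single libraries. It changed sign with array weights (0.10), without Paro/Neo replicate 1 (0.21) and without Vehicle replicate 1 (0.02). Paro/Neo replicate 1, the library of lowest weight (0.261), held its lowest value, and Vehicle replicate 1 the highest Vehicle value. Why these libraries differed was not tested. Over all genes, 15 were higher and 2 lower. These were 5 and 1 without a filter, over more genes tested. Lower genes numbered 1 under the stricter filter and 4 with array weights. Leaving out single libraries gave 4 to 23 higher and 0 to 4 lower. With the replicate block 25 were higher, and among the matricellular genes 0 passed the threshold and 5 had an unadjusted p under 0.05. Deviations of same-numbered mice correlated at -0.0528, -0.0356 and -0.122, and no mouse correlated best with its own number. This did not show a pairing and cannot exclude one, as the deviations were centred within groups of 3 mice. Tnc and Spp1 had 8 to 28 reads per library.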
